A study of Mus musculus with 32 samples.

Results

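Day 4 and day 0 EVs of the pelvic peritoneum were compared in an orthotopic mouse model of ovarian cancer, from small RNA-seq of 5 libraries per day. Extracellular vesicles (EVs) had been absorbed from the moist organ surface by cellulose nanofiber (CNF) sheets. The miRNAs described are the 403 that reached 10 RPM (10 reads per 1000000 mapped reads) in at least 5 of these 10 libraries, out of 1123 with any read in them and 1513 in the table. The series holds 32 mouse libraries, and the other 22 are EVs of the liver surface (5 on day 4 and 5 on day 0) and EVs and tissues of an intraperitoneal (IP) model.

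All mice were females of the athymic nude strain BALB/cSlc-nu/nu, 8 weeks old when bought and up to 10 weeks old when tumor cells were given. The day 4 sheets came from mice that carried luciferase-labelled ID8-T6 cells placed into the left ovarian bursa. ID8-T6 is a subclone of the ID8 mouse ovarian carcinoma line picked for high metastatic ability. The day 0 sheets are labelled as day 0 of the same model. No sham-operated group on day 4 was analysed here, so the tumor cells, the operation and the passing of time cannot be told apart. The labels do not say whether sheets of 1 number are from 1 mouse, and each p-value covers the spread among these sheets alone, which may be partly technical.

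MiRNAs are short RNAs that guide Argonaute proteins to mRNAs, mainly by pairing of the seed, the bases at positions 2 to 8 from the 5′ end. Those packed into EVs can be taken up by other cells, and in the peritoneal cavity EVs can come from mesothelium, blood cells, muscle, gland and, once present, tumor cells. Both arms of a hairpin precursor (5p and 3p) can be kept, and miRNAs of 1 primary transcript are made together. Each EV preparation is a mixture, in which fewer EVs from a cell type and less of a miRNA per EV cannot be told apart.

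Mature sequences were found for 350 of the 403 miRNAs in RefSeq (GRCm38.p6). Those below carry the results, written 5′ to 3′ with the seed in capitals. The first set are rises that share a locus, from the miR-183 cluster (chr6:30165962-30169732, minus strand), miR-144 and miR-451a (chr11:78073010-78073207, plus strand) and the miR-322 and miR-503 cluster (chrX:53048044-53054327, minus strand), followed by miR-31-5p from chromosome 4.
miR-182-5p: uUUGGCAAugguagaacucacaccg
miR-183-5p: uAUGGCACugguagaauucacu
miR-96-5p: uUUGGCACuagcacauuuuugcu
miR-144-3p: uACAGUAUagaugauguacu
miR-451a: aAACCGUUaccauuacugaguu
miR-322-5p: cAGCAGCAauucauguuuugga
miR-503-5p: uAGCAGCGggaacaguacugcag
miR-31-5p: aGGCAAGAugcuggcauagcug

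A second set holds further rises and, for comparison, the abundant miR-21a-5p, which was not called. MiR-6240 had the largest rise, and the 3 miR-3473 miRNAs share a run of letters. MiR-3473b and miR-3473e differ only near their 3′ ends, and miR-21c has the seed of miR-21a-5p. MiR-132-3p shares its seed with miR-212-3p, and miR-25-3p its seed with miR-92a-3p and miR-92b-3p.
miR-6240: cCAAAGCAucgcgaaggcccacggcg
miR-3473a: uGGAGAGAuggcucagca
miR-3473b: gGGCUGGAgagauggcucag
miR-3473e: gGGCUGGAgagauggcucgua
miR-21a-5p: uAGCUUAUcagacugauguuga
miR-21c: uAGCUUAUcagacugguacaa
miR-21a-3p: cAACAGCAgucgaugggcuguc
miR-132-3p: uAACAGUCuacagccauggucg
miR-212-3p: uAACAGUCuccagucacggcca
miR-25-3p: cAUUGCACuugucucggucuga
miR-92a-3p: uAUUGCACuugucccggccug
miR-92b-3p: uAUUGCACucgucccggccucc

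The third set holds the families in which members of 1 seed or 1 locus went different ways, and other abundant falls. The seeds GAGGUAG of let-7, ACCCGUA of miR-99 and CCCUGAG of miR-125 can be read from them.
let-7a-5p: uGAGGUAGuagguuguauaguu
let-7c-5p: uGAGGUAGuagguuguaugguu
let-7f-5p: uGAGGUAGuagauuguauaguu
let-7i-5p: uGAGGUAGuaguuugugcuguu
miR-99a-5p: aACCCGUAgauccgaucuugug
miR-99b-5p: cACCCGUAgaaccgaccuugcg
miR-125a-5p: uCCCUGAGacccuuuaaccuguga
miR-125b-5p: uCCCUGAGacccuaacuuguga
miR-125b-1-3p: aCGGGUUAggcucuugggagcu
miR-125b-2-3p: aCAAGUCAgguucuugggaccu
miR-26a-5p: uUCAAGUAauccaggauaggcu
miR-200b-3p: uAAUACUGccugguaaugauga
miR-192-5p: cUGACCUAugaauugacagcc
miR-194-5p: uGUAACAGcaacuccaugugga

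The libraries of the 2 days differed in depth. Day 4 libraries held 132483 to 410549 mapped miRNA reads (median 303743) and day 0 libraries 1022869 to 1682346 (median 1327307), so 1 read was worth 2.44 to 7.55 RPM on day 4 and 0.594 to 0.978 RPM on day 0. Reads were found for 501 to 679 miRNAs per day 4 library and 732 to 782 per day 0 library. Depth and day cannot be told apart by the design, and the counts of calls were therefore also taken after all libraries had been thinned to 132483 reads. Across the 403 miRNAs the rank correlation averaged 0.901 between day 4 libraries (10 pairs), 0.945 between day 0 libraries (10 pairs) and 0.822 between days (25 pairs). The first principal component, with 50.7% of the variance, separated the days, and day 4 replicate 5 stood apart from the other 9 libraries on the second (22.2%).

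Of the 403 miRNAs, 76 were called higher and 21 lower on day 4 by limma (adjusted p under 0.05 and log2 fold change over 1 in size), which is 18.9% and 5.21%. All 5 day 4 libraries lay above all 5 day 0 libraries for 54 miRNAs (13.4%) and below them for 24 (5.96%). Among the called miRNAs, 50 of the 76 and 15 of the 21 were free of overlap. Fold changes are of log2(RPM + 10), which makes those of rare miRNAs too small. The 403 miRNAs had a median log2 fold change of 0.18. Scaling each library to the median ratio of its miRNAs shifted this median down by 0.29 to -0.10 and gave 58 higher and 51 lower, so the excess of rises over falls depends on the scaling. All 21 falls remained called under it, and 18 of the 76 rises did not.

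The labels give replicates 1, 3 and 4 of both days 1 library code and replicates 2 and 5 another. Within replicates 1, 3 and 4 limma called 68 higher and 17 lower. Within replicates 2 and 5, with 2 libraries a day, it called none (67 at an unadjusted p under 0.05). Each of the 97 moved there as it did in the whole set, but these libraries helped to choose the 97, so this is no independent support. With the code as a covariate 77 were called higher and 23 lower.

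**Figure D1:**
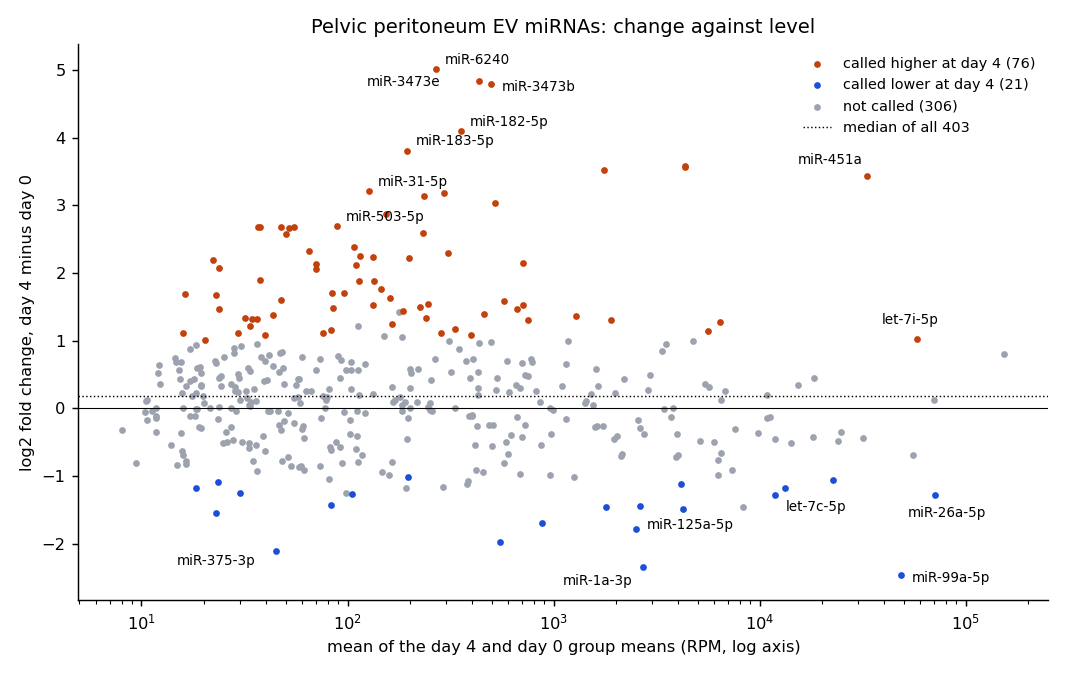
Change against level for the 403 miRNAs. The x axis is the mean of the 2 group means in RPM on a log axis and the y axis the log2 fold change of day 4 over day 0; the 76 red points were called higher, the 21 blue points lower and the 306 grey points neither, and the dotted line is the median of 0.18. The rises past 3 on the y axis lie below 1000 RPM apart from red blood cell miRNAs such as miR-451a, and miR-99a-5p and miR-26a-5p are the most abundant falls.

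The 3 miRNAs of the miR-183 cluster, made from 1 transcript and best known from sensory organs, rose together. MiR-182-5p stood at 916, 563, 181, 198 and 1588 RPM in day 4 replicates 1 to 5, against 23.4, 15.6, 14.3, 16.3 and 31.5 RPM in day 0 replicates 1 to 5 (limma log2 fold change 4.10 with SE 0.53, adjusted p = 0.000172). Every day 4 library was far above the day 0 libraries, and replicates 3 and 4 were the lowest of their day. MiR-183-5p had 451, 409, 151, 95.5 and 777 RPM on day 4 and 18.8, 5.87, 10.2, 7.24 and 19.6 RPM on day 0 (limma log2 fold change 3.81 with SE 0.50, adjusted p = 0.000172). It ranked the day 4 libraries nearly as miR-182-5p did, with replicate 5 highest. No library of the 2 days overlapped for any of the 3, and the rarest, miR-96-5p, reached 37.7 to 161 RPM on day 4 and 2.93 to 8.18 RPM on day 0 (limma log2 fold change 2.68 with SE 0.38, adjusted p = 0.000221). As miR-96-5p reached 10 RPM in no day 0 library, it passed the filter only through day 4. All 11 members that entered in this way were called higher, so its call and lack of overlap are partly set by the filter.

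MiR-31-5p, which is induced in wounded and transformed epithelium, rose without overlap. Its levels were 214, 592, 113, 148 and 131 RPM on day 4 against 4.52, 17.6, 26.6, 16.3 and 4.16 RPM on day 0 (limma log2 fold change 3.21 with SE 0.45, adjusted p = 0.000172). Day 4 replicate 2 was highest, and the other 4 were between 113 and 214 RPM. MiR-503-5p, a cell cycle inhibitor encoded beside miR-322 (the mouse counterpart of human miR-424), had 145, 222, 106, 184 and 137 RPM on day 4 and 2.26, 35.2, 17.7, 27.1 and 8.32 RPM on day 0 (limma log2 fold change 2.69 with SE 0.37, adjusted p = 0.000172). Here the day 4 libraries were close to each other, and it was the day 0 libraries that spread. Of the 8 tested miRNAs of this X chromosome cluster 4 were called higher and all 8 had a log2 fold change above 0, with a median of 1.21. The other 3 called were miR-450b-5p (limma log2 fold change 1.68 with SE 0.25, adjusted p = 0.000346), miR-322-5p (limma log2 fold change 1.52 with SE 0.45, adjusted p = 0.0215) and miR-542-3p (limma log2 fold change 1.34 with SE 0.33, adjusted p = 0.00872). The passenger arm miR-322-3p (log2 fold change 0.66) was not called. MiR-351-5p (log2 fold change 1.08, limma adjusted p = 0.069) was not called, but it was with the replicate number as a block (limma adjusted p = 0.0134).

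Further rises were of single miRNAs. MiR-34c-5p, a target of p53, had 153, 424, 98.1, 148 and 117 RPM on day 4 and 46.7, 20.5, 19.8, 27.1 and 41.6 RPM on day 0 (limma log2 fold change 2.12 with SE 0.39, adjusted p = 0.00158). Its relatives miR-34a-5p (log2 fold change 0.72) and miR-449a-5p (0.076) were not called. MiR-210-3p, the best known miRNA of hypoxia, had 518, 1176, 1170.0, 1314 and 282 RPM on day 4 and 192, 350.0, 193, 291 and 256 RPM on day 0 (limma log2 fold change 1.58 with SE 0.42, adjusted p = 0.0131). The groups overlapped by day 4 replicate 5 alone, whose 282 RPM lay within the day 0 range. MiR-184-3p, abundant in the cornea and lens, reached 148, 26.8, 15.1, 32.9 and 399 RPM on day 4 against 9.04, 3.91, 4.09, 2.71 and 7.13 RPM on day 0 (limma log2 fold change 2.32 with SE 0.63, adjusted p = 0.0147). Replicates 1 and 5 carried most of that rise, and the call was lost after thinning (limma adjusted p = 0.0549). MiR-184-3p too reached 10 RPM in no day 0 library, so it passed the filter only through day 4. MiR-181d-5p (limma log2 fold change 1.77 with SE 0.28, adjusted p = 0.000594) was the only called member of the 5 tested of its family, and the more abundant miR-181a-5p (log2 fold change -0.69) and miR-181b-5p (0.27) were not called.

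**Figure D2:**
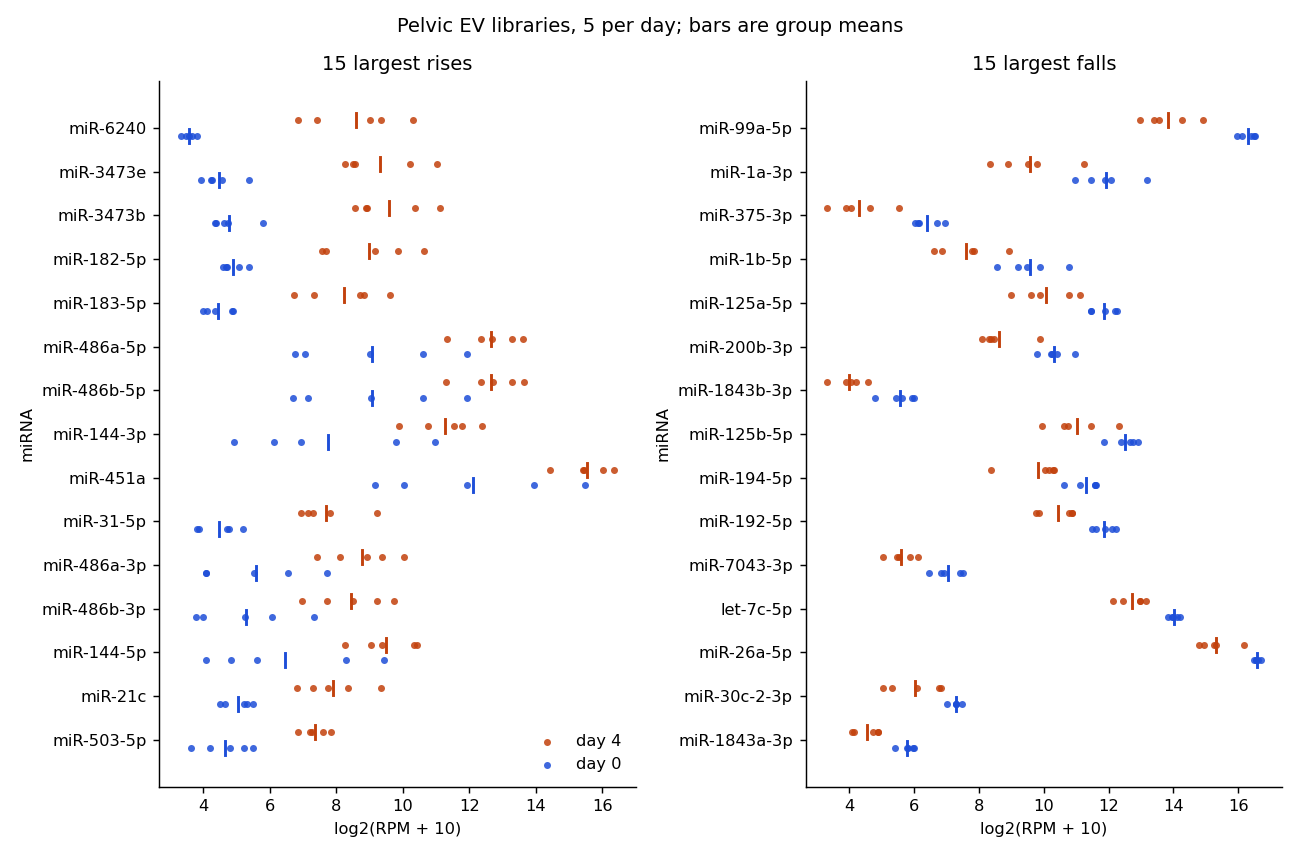
The 15 largest rises (left) and falls (right) among called miRNAs. The x axis is log2(RPM + 10), each dot 1 library, each bar a group mean, and in each row day 4 (red) is above day 0 (blue). Red and blue dots are apart for miR-6240, miR-3473b, miR-182-5p and miR-99a-5p, and they overlap for the 7 red blood cell miRNAs.

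Of 14 tested miRNAs tied to inflammation and wounding, limma called 5 higher and none lower, with a median log2 fold change of 0.83 beside 0.18 over all. Scaling, edgeR and DESeq2 each gave 1 lower. Among the 5 rises, miR-147-3p passed the filter only through day 4, which adds to both the count and the median. Over all 403 miRNAs 18.9% rose and 5.21% fell, and the counts in this and the other lists are to be read against these shares. MiR-21a-3p, the minor arm of the miR-21 hairpin that lies in an exon of Vmp1, had 94.6, 144, 325, 270.0 and 110.0 RPM on day 4 and 35.4, 33.2, 49.8, 45.2 and 31.5 RPM on day 0 (limma log2 fold change 1.88 with SE 0.35, adjusted p = 0.00197). Its abundant partner miR-21a-5p, induced by inflammation and in many carcinomas, had the highest mean level on both days, with 158657, 267408, 228067, 231031 and 108971 RPM on day 4 and 100979.7, 114121, 129815, 119082 and 83399.6 RPM on day 0. Day 4 replicates 1 to 4 were above every day 0 library and replicate 5 was not, and its log2 fold change of 0.81 was under the threshold of 1 (limma adjusted p = 0.0263). MiR-21c, whose seed is that of miR-21a-5p, had 103 to 635 RPM on day 4 and 12.7 to 34.8 RPM on day 0 (limma log2 fold change 2.88 with SE 0.44, adjusted p = 0.00036). How reads that fit both were assigned is not stated.

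MiR-132-3p and miR-212-3p, made from 1 transcript on chromosome 11 under the control of CREB, share the seed AACAGUC. MiR-132-3p had 281, 587, 438, 221 and 158 RPM on day 4 and 234, 40.1, 89.3, 104 and 108 RPM on day 0 (limma log2 fold change 1.51 with SE 0.45, adjusted p = 0.0215), and miR-212-3p had 19.5, 92.6, 37.7, 32.9 and 20.6 RPM on day 4 and 14.3, 0.978, 6.14, 7.24 and 5.35 RPM on day 0 (limma log2 fold change 1.48 with SE 0.35, adjusted p = 0.00733). Day 4 replicate 2 was highest for both, and day 0 replicate 1 was the highest of its day for both, which made the groups overlap for miR-132-3p only. MiR-147-3p, induced in mouse macrophages by Toll-like receptors, reached 22.3 to 75.5 RPM on day 4 against 0.682 to 3.62 RPM on day 0 (limma log2 fold change 2.08 with SE 0.29, adjusted p = 0.000172). In the same list miR-146a-5p had 2358 to 9359.7 RPM on day 4 and 6326 to 9980.2 RPM on day 0, and miR-146b-5p 10104 to 24584 RPM on day 4 and 11338 to 14864 RPM on day 0, with log2 fold changes of -0.31 and 0.35, neither called.

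Of 10 tested leukocyte miRNAs limma called none (4 at an unadjusted p under 0.05), while edgeR and DESeq2 called 3 lower (median log2 fold change -0.21). They include the lymphocyte miRNA miR-150-5p (2179 to 6015 RPM on day 4, 4993 to 9537 RPM on day 0) and the neutrophil miRNA miR-223-3p (1560.3 to 6019 RPM on day 4, 3528 to 13108 RPM on day 0). The summed level of the 10 was 10166 to 34394 RPM on day 4 and 29603 to 46817 RPM on day 0. With median-of-ratios scaling 3 of the 10 were called lower.

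All 7 red blood cell miRNAs were called higher, though none was free of overlap. None of the 7 was called within replicates 1, 3 and 4 alone or within replicates 2 and 5 alone, and 4 were called without replicate 2, without replicate 5 or without a filter. MiR-451a, which is cut by Ago2 in developing red blood cells, had 22234, 45135, 44104, 67317 and 84509 RPM on day 4 and 562, 1045, 45679, 15952 and 3881 RPM on day 0 (limma log2 fold change 3.43 with SE 0.98, adjusted p = 0.0179). Day 0 replicate 3 was above 3 of the 5 day 4 libraries, while day 0 replicates 1 and 2 were far lower, so the groups overlapped. MiR-144-3p, from the same transcript, had 938, 3522, 2974, 5330.2 and 1739 RPM on day 4 and 20.3, 59.6, 1985, 872 and 113 RPM on day 0 (limma log2 fold change 3.53 with SE 0.98, adjusted p = 0.0164). MiR-486a-5p, from an intron of the red cell ankyrin gene, had 2549, 5193, 6635, 10068 and 12599 RPM on day 4 and 97.9, 124, 3936, 1544 and 503 RPM on day 0 (limma log2 fold change 3.58 with SE 0.87, adjusted p = 0.00803), and miR-486b-5p is nearly identical in its values, so reads may be shared between them.

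The other 3 of the list, miR-144-5p (log2 fold change 3.04), miR-486a-3p (3.19) and miR-486b-3p (3.15), showed the same overlap. The 7 together took 28805 to 114003 RPM on day 4 (median 61872) and 792 to 56565 RPM on day 0 (median 5113). EdgeR on recovered reads called 2 of the 7 and DESeq2 4. Without the 2 shallowest day 4 libraries limma called 4. The 3 lost there, and without replicate 2, without replicate 5 and without a filter, were miR-451a, miR-144-3p and miR-144-5p. The last was also lost without day 4 replicate 2 or 4 and without day 0 replicate 1, 2 or 5. The part of red blood cells in the other results was not tested.

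Of the 50 tested miRNAs with late numbers, here 1000 or above, 18 were called higher and 4 lower, beside 18.9% and 5.21% over all 403, with a median log2 fold change of 0.44. Of the 18 rises 7 passed the filter only through day 4, as did 11 rises over all 403. The share and median of this list are therefore not a measure of late-numbered miRNAs as a group. MiR-6240 had the largest change of all, at 106, 161, 634, 1268 and 509 RPM on day 4 against 0, 1.96, 4.09, 2.71 and 1.19 RPM on day 0 (limma log2 fold change 5.01 with SE 0.55, adjusted p = 5.5e-05). Every day 4 library was above 100 RPM and every day 0 library below 5 RPM. MiR-3473e had 351, 370.2, 2091, 1172 and 296 RPM on day 4 and 5.27, 8.80, 31.4, 9.05 and 13.7 RPM on day 0 (limma log2 fold change 4.84 with SE 0.53, adjusted p = 5.5e-05), and miR-3473b 462, 475, 2227, 1320.2 and 371 RPM on day 4 and 10.5, 10.8, 45.7, 14.5 and 16.6 RPM on day 0 (limma log2 fold change 4.80 with SE 0.50, adjusted p = 5.5e-05). Replicates 3 and 4 were the highest of day 4 for both, and replicate 3 the highest of day 0. MiR-6239 had 25.0, 14.6, 113, 95.5 and 124 RPM on day 4 and 0, 2.93, 0, 0 and 0.594 RPM on day 0 (limma log2 fold change 2.68 with SE 0.45, adjusted p = 0.000773), with no read in 3 of the day 0 libraries.

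Of the 17 late-numbered rises with a RefSeq sequence, 3 also occur in 10 or more other genes (the median was 0 genes), while miR-6240 and miR-3473e occur in 0. The 3 tested miR-3473 miRNAs share the 14 letters UGGAGAGAUGGCUC, found in no other of the 350 members on either strand, and all 3 were called higher. Exact copies of the mature sequence, on either strand, were in transcripts of 758 other genes for miR-3473b, 1079 for miR-3470b and 294 for miR-3473a (GENCODE M21). They were the only members of the 350 with copies in 10 or more other genes, 3 of 350 (0.857%), and all were called higher. The loci of miR-5121 (log2 fold change 2.59), miR-1291 (2.13) and miR-3535 (1.52), all called higher, lie within snoRNA genes in that annotation. Sequences of 4 members not called (-0.72 to 0.40) also occur in snoRNA transcripts, though their loci were not looked up. The loci of miR-1843a-3p (-1.26) and miR-1843b-3p (-1.55), both called lower, lie within scaRNA genes. Sequences of 3 members not called (-0.56 to 0.093) also occur in scaRNA transcripts, again without a look at their loci. Whether such reads were miRNAs or pieces of other RNAs was not tested.

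The remaining late-numbered rises were miR-6538, miR-7667-5p, miR-1195, miR-2137, miR-3963, miR-5128, miR-5099, miR-5100, miR-3470b and miR-3071-5p, with log2 fold changes of 1.12 to 2.69. MiR-3473a was called at 1.12. The other 2 late-numbered falls were miR-7043-3p (-1.43) and miR-7219-3p (-1.18). Of the 18 rises 7 stayed under 10 RPM in every day 0 library. The most abundant of the list, miR-3074-5p and miR-1839-5p, had log2 fold changes of -0.18 and 0.093 and were not called.

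The imprinted Dlk1-Dio3 cluster on chromosome 12, expressed from the maternal copy, gave 16 rises and no fall among 53 tested miRNAs, beside 18.9% and 5.21% over all 403, with a median log2 fold change of 0.57. MiR-134-5p had 445, 497, 536, 441 and 659.8 RPM on day 4 and 108, 151, 51.8, 75.1 and 125 RPM on day 0 (limma log2 fold change 2.29 with SE 0.31, adjusted p = 0.000172). MiR-341-3p, from an intron of Rian, had 148, 156, 196, 277 and 206 RPM on day 4 and 26.4, 55.7, 28.0, 19 and 42.8 RPM on day 0 (limma log2 fold change 2.25 with SE 0.30, adjusted p = 0.000172). Neither overlapped between days. MiR-300-3p, miR-381-3p, miR-299a-3p, miR-370-3p, miR-376b-3p, miR-409-3p, miR-410-3p, miR-495-3p, miR-382-5p, miR-323-3p, miR-540-3p, miR-665-3p, miR-380-3p and miR-380-5p were the others called, at log2 fold changes of 1.11 to 1.71. The most abundant miRNAs of the locus did not follow: miR-127-3p had 3302 to 13795 RPM on day 4 and 2999.8 to 9118 RPM on day 0 (log2 fold change 0.25), and miR-379-5p 685 to 5176 RPM on day 4 and 1255 to 4090.5 RPM on day 0 (-0.29). Scaling left 11 rises and made 2 falls, and thinning left 9 rises. The calls of miR-380-3p, miR-381-3p, miR-382-5p and miR-410-3p were each lost in 9 of 15 settings without 1 numbered pair or 1 library.

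**Figure D3:**
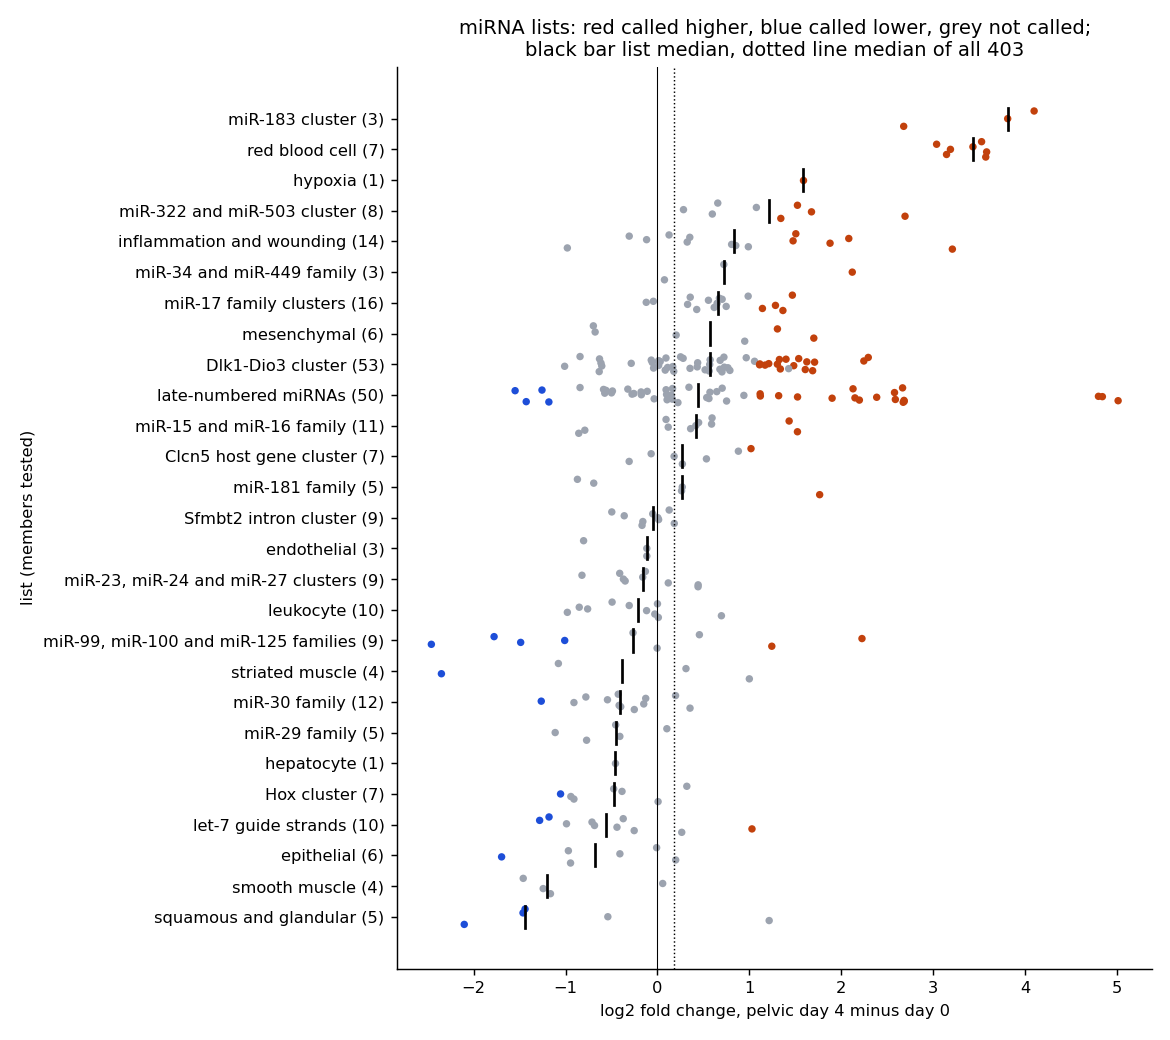
Log2 fold change of day 4 over day 0 (x axis) for each tested member of the 27 miRNA lists (rows, number tested in brackets, ordered by their median). Red points were called higher, blue points lower and grey points neither, the black bar is the list median and the dotted line the median of all 403. The miR-183 cluster and the red blood cell list stand at the top with every member red, and blue points gather in the lower rows.

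Growth-linked miRNAs of the miR-17 family clusters gave 4 rises among 16 tested (median 0.66), a share near the 18.9% over all 403. Of these, 3 are from the Mcm7 locus on chromosome 5, miR-106b-3p (limma log2 fold change 1.47 with SE 0.33, adjusted p = 0.00573), miR-93-5p (limma log2 fold change 1.37 with SE 0.38, adjusted p = 0.0166) and miR-25-3p, which had 6832, 6428, 7125, 8237 and 17458 RPM on day 4 and 3126, 2473, 5134, 3382 and 3879.7 RPM on day 0 (limma log2 fold change 1.28 with SE 0.31, adjusted p = 0.00791). Day 4 replicate 5 was more than 2 times as high as the other day 4 libraries for miR-25-3p, and none of the 5 overlapped with day 0. The last was miR-92a-3p, at 5282, 7427, 8069, 12702 and 5609 RPM on day 4 and 3228, 2615, 4416, 3619.5 and 3165 RPM on day 0 (limma log2 fold change 1.14 with SE 0.28, adjusted p = 0.00782). MiR-25-3p, miR-92a-3p and miR-92b-3p (limma log2 fold change 1.09 with SE 0.31, adjusted p = 0.0179) share the seed AUUGCAC, and all 3 fell below a log2 fold change of 1 with scaling (0.96, 0.82 and 0.84).

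Among the 6 mesenchymal miRNAs, the 2 hairpins with a copy in Dnm3os, an antisense transcript of Dnm3, rose in 1 arm each. MiR-199a has another copy on chromosome 9, so its rise cannot be assigned to Dnm3os. MiR-214-3p had 131, 256, 67.9, 165 and 61.9 RPM on day 4 and 13.6, 49.9, 17.7, 39.8 and 41.6 RPM on day 0 (limma log2 fold change 1.70 with SE 0.42, adjusted p = 0.00806), and miR-199a-5p had 910.1, 1693, 777, 1349.8 and 619 RPM on day 4 and 220.0, 715, 267, 481 and 493 RPM on day 0 (limma log2 fold change 1.31 with SE 0.38, adjusted p = 0.0201). The opposite arms were not called. MiR-214-5p had 52.9, 65.8, 37.7, 42.8 and 55.0 RPM on day 4 and 12.8, 29.3, 14.3, 26.2 and 26.7 RPM on day 0, higher in every day 4 library but with a log2 fold change of 0.95, under the threshold of 1 (limma adjusted p = 0.0167). MiR-199a-3p had 825 to 2767 RPM on day 4 and 1931 to 3027 RPM on day 0 (log2 fold change -0.70), with nearly the same values for miR-199b-3p. With scaling 1 of the 6 was called higher and 2 lower, and edgeR called 1 higher. The call of miR-199a-5p was lost under both.

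The arms of other hairpins also parted. In the miR-15 and miR-16 family, 2 of 11 were called, miR-322-5p and miR-15b-3p (limma log2 fold change 1.43 with SE 0.40, adjusted p = 0.0161), and the guide strands miR-15b-5p, miR-16-5p and miR-15a-5p had log2 fold changes of 0.45, 0.12 and 0.093. From 1 locus on chromosome 2, miR-296-3p had 114, 144, 113, 115 and 110.0 RPM on day 4 and 21.1, 29.3, 19.8, 20.8 and 15.5 RPM on day 0 (limma log2 fold change 2.05 with SE 0.24, adjusted p = 8.67e-05), and miR-298-5p rose with it (limma log2 fold change 1.38 with SE 0.33, adjusted p = 0.00724). The 5 day 4 libraries were close to each other for miR-296-3p, with replicate 2 highest, and all were far above day 0.

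The falls were led by miR-99a-5p, an mTOR-targeting miRNA and one of the most abundant on day 0. It had 30705, 10902, 12062, 8029.8 and 19878 RPM on day 4 and 93427, 63614, 91501, 70513 and 85396 RPM on day 0 (limma log2 fold change -2.46 with SE 0.33, adjusted p = 0.000172). Every day 4 library lay below every day 0 library by more than 2 times, and replicate 1 was the highest of day 4. Its host gene Mir99ahg on chromosome 16 also carries let-7c-5p and miR-125b-2 in introns, and these fell too. Let-7c-5p had 9034, 8067, 4453, 5531 and 8069 RPM on day 4 and 16285, 17522, 14637, 18678 and 15899 RPM on day 0 (limma log2 fold change -1.28 with SE 0.24, adjusted p = 0.00173), and miR-125b-2-3p 145, 87.7, 174, 148 and 89.4 RPM on day 4 and 251, 279.6, 341, 237 and 210.4 RPM on day 0 (limma log2 fold change -1.01 with SE 0.28, adjusted p = 0.0168). None of the 3 overlapped between days. Let-7c-5p has a further copy on chromosome 15.

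MiR-125b-5p is made from that locus and from a copy on chromosome 9, and each copy has its own 3p arm. MiR-125b-5p had 2819, 5137, 1562, 1719 and 983 RPM on day 4 and 5329, 7709, 6537, 6879.9 and 3675 RPM on day 0 (limma log2 fold change -1.49 with SE 0.40, adjusted p = 0.014). The 3p arm of the chromosome 9 copy, miR-125b-1-3p, went up: 301, 392, 204, 142 and 639 RPM on day 4 against 92.7, 64.5, 27.3, 35.3 and 80.8 RPM on day 0 (limma log2 fold change 2.23 with SE 0.43, adjusted p = 0.00218). The groups overlapped for the shared 5p arm, through day 4 replicate 2, and were apart for both 3p arms, lower for the chromosome 16 arm and higher for the chromosome 9 arm. MiR-125a-5p, of the same seed as miR-125b-5p, had 2215, 1737, 928, 767 and 495 RPM on day 4 and 3770.0, 4663, 2778, 4861 and 2825 RPM on day 0 (limma log2 fold change -1.78 with SE 0.39, adjusted p = 0.00483).

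In the same chromosome 17 locus as miR-125a, within Spaca6, miR-99b-3p rose (limma log2 fold change 1.24 with SE 0.29, adjusted p = 0.00582) and miR-99b-5p had 1531 to 5045 RPM on day 4 and 2287 to 4384 RPM on day 0 (log2 fold change -0.0040, not called). Over the miR-99, miR-100 and miR-125 families 2 of 9 were called higher and 4 lower. The 11 listed members took 13136 to 42589 RPM on day 4 and 81869.7 to 109536 RPM on day 0. MiR-99a-5p made up most of it on day 0.

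Of the 10 tested let-7 miRNAs 9 share the seed GAGGUAG, and members of this seed moved apart. The other is let-7j (seed GAGGUAU, log2 fold change -0.25, not called). Let-7i-5p, from chromosome 10, had 79618, 84017, 59857, 60545 and 110456 RPM on day 4 and 36521, 36845, 35914, 35250.0 and 44459 RPM on day 0 (limma log2 fold change 1.03 with SE 0.21, adjusted p = 0.00296), though with scaling it was at 0.70 and not called. Let-7a-5p had 8900.2, 9619, 7805, 9811 and 5183 RPM on day 4 and 16676, 19829.5, 14865, 21524 and 19271 RPM on day 0 (limma log2 fold change -1.18 with SE 0.23, adjusted p = 0.0024). Let-7f-5p (36952 to 49374 RPM on day 4, 56212 to 83708 RPM on day 0, log2 fold change -0.69) and let-7g-5p (18744 to 31619 RPM on day 4, 32159 to 40035 RPM on day 0, -0.44) were below day 0 in every day 4 library without reaching the threshold of 1. Of 10 tested, 1 was called higher and 2 lower (median -0.56), and with scaling none higher and 5 lower.

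Several glandular and epithelial miRNAs fell. MiR-375-3p, known from pancreatic islets and other secretory cells, had 36.2, 4.87, 15.1, 6.58 and 0 RPM on day 4 and 115, 59.6, 94.1, 60.6 and 55.3 RPM on day 0 (limma log2 fold change -2.10 with SE 0.39, adjusted p = 0.00173). Replicate 5 of day 4 held no read, and no library of the 2 days overlapped. MiR-192-5p, of intestine, liver and kidney epithelium, had 1865, 857, 1857, 912 and 1753 RPM on day 4 and 4390.1, 2896, 3797, 3120.2 and 4774 RPM on day 0 (limma log2 fold change -1.44 with SE 0.30, adjusted p = 0.0036). Its chromosome 19 neighbour miR-194-5p, which has another copy on chromosome 1, had 1135, 1035, 1253, 1264 and 323 RPM on day 4 and 2201, 3034, 3151, 3027 and 1575 RPM on day 0 (limma log2 fold change -1.46 with SE 0.38, adjusted p = 0.0127). Neither overlapped between days, and day 4 replicate 5 was lowest for miR-194-5p. These were 3 of the 5 tested in the list of squamous and glandular miRNAs, and the skin miRNA miR-203-3p was not called (296 to 1228 RPM on day 4, 893 to 1047 RPM on day 0). The fifth, miR-205-5p of squamous epithelium, went the other way, at 61.2, 185, 377, 250.2 and 13.7 RPM on day 4 and 42.9, 66.5, 49.1, 48.9 and 25.0 RPM on day 0 (limma log2 fold change 1.22 with SE 0.63, adjusted p = 0.174). Day 4 replicate 5 was below every day 0 library, and limma did not call it. It was called higher with the replicate number as a block (limma adjusted p = 0.0373), without the 2 shallowest day 4 libraries (limma adjusted p = 0.0278), with edgeR (adjusted p = 0.0452) and with DESeq2 (adjusted p = 0.0106).

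Of the 6 tested epithelial miRNAs limma called 1, miR-200b-3p, which holds back Zeb1 and Zeb2, while scaling, edgeR and DESeq2 each gave 3 lower. MiR-200b-3p had 941, 309, 347, 263 and 323 RPM on day 4 and 2003, 1187, 873, 1352 and 1209.6 RPM on day 0 (limma log2 fold change -1.70 with SE 0.36, adjusted p = 0.00412). Only day 4 replicate 1 overlapped with day 0. From the same locus, miR-200a-3p (log2 fold change -0.97, limma adjusted p = 0.0216) was just under the threshold in size and miR-429-3p (-0.95) was not called. Epithelial miRNAs together stood at 859 to 2015 RPM on day 4 and 1857 to 3501 RPM on day 0, summed over the 8 listed members with reads.

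Muscle miRNAs gave a mixed picture. MiR-1a-3p, of heart and skeletal muscle, had 882, 2411, 468, 316 and 729 RPM on day 4 and 4270.3, 3794, 2814, 1992 and 9353 RPM on day 0 (limma log2 fold change -2.35 with SE 0.52, adjusted p = 0.00515). Day 4 replicate 2 overlapped with day 0 replicate 4. MiR-1b-5p moved alike (limma log2 fold change -1.98 with SE 0.49, adjusted p = 0.00836). MiR-133a-3p, made together with miR-1a, was at 75.6 to 762 RPM on day 4 and 311 to 645 RPM on day 0 (log2 fold change -1.08, not called), while it was called with the replicate number as a block (limma adjusted p = 0.0386). MiR-206-3p, of skeletal muscle only, was at 128 to 1133 RPM on day 4 and 67.8 to 445 RPM on day 0 (log2 fold change 1.00, not called). In the smooth muscle list limma called none of 4 (1 at an unadjusted p under 0.05, median -1.20), and edgeR and DESeq2 called 3 lower. Its most abundant member miR-143-3p had 1532 to 4591 RPM on day 4 and 2871 to 43461 RPM on day 0 (log2 fold change -1.46), and miR-145a-5p was at -1.16. MiR-143-3p and miR-145a-3p were called lower with the block (limma adjusted p = 0.0061 and 0.0261), and so was miR-29b-3p (0.00977).

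Of abundant miRNAs outside these groups, miR-26a-5p fell, which lies in introns of the phosphatase genes Ctdspl and Ctdsp2. It had 74995, 39449.6, 40571, 28425 and 31666 RPM on day 4 and 96863, 106244, 92435, 100495 and 95983 RPM on day 0 (limma log2 fold change -1.28 with SE 0.25, adjusted p = 0.00218), with day 0 libraries within 92435 to 106244 RPM. MiR-10b-5p, of the Hoxd cluster, had 20069, 11141, 17678, 8836 and 15988 RPM on day 4 and 43640.2, 27614, 17386, 26727 and 38679 RPM on day 0 (limma log2 fold change -1.05 with SE 0.30, adjusted p = 0.0185), and its relative miR-10a-5p was not called (log2 fold change -0.48). Among 7 tested miRNAs of the Hox clusters limma called 1 lower, while scaling, edgeR and DESeq2 each gave 3. MiR-139-5p, from an intron of Pde2a, fell by 1.12 on the log2 scale (1443 to 3819 RPM on day 4, 4646 to 7066 RPM on day 0). MiR-30c-2-3p (-1.27) and miR-130b-5p (-1.10) were the last of the 21 falls.

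Other abundant miRNAs were not called: miR-148a-3p had 23135 to 212780.4 RPM on day 4 and 33855 to 101584 RPM on day 0, miR-27a-3p 8035 to 35484 RPM on day 4 and 19997 to 30576 RPM on day 0, and miR-30a-5p 9470.2 to 14565 RPM on day 4 and 8825 to 11842 RPM on day 0. The 10 most abundant miRNAs took 55.2% to 65.6% of the reads on day 4 and 50.4% to 58.7% on day 0. Several whole lists had no limma call. The endothelial miR-126a-3p had 254 to 515 RPM on day 4 and 367 to 1638 RPM on day 0, and miR-126a-5p and its overlapping relative miR-126b-3p were both at -0.12 on the log2 scale. In the miR-23, miR-24 and miR-27 clusters, where 9 were tested, miR-23a-3p was at -0.13 and miR-27b-3p at 0.44 on the log2 scale. In the miR-29 family, whose guide strands target collagen mRNAs and of which 5 were tested, miR-29a-3p was at -0.45 and miR-29c-3p at -0.41. The cluster in an intron of Sfmbt2, an imprinted gene expressed from the paternal copy, had 9 tested, of which the most abundant, miR-669c-5p, miR-669o-3p and miR-467a-5p, were at -0.16, 0.18 and -0.50. At an unadjusted p under 0.05 these lists held 0 endothelial miRNAs, 2 of the miR-23, miR-24 and miR-27 clusters, 1 of the miR-29 family and 0 of the Sfmbt2 cluster, and edgeR and DESeq2 each called 1 lower in all but the last, where they called 0. The liver miRNA miR-122-5p, the 1 tested of hepatocytes, ranged over 0 to 1237 RPM on day 4 and 9.78 to 401 RPM on day 0, with replicate 5 highest on both days. In the miR-30 family 1 of 12 fell, while the abundant miR-30d-5p (-0.42) and miR-30c-5p (-0.91) were not called. In the Clcn5 cluster on the X chromosome 1 of 7 rose, miR-188-5p (limma log2 fold change 1.02 with SE 0.34, adjusted p = 0.0385), and miR-532-5p (0.27), miR-501-3p (0.53) and miR-362-3p (0.88) were not called. The miR-188-5p call was lost in 12 of 15 settings without 1 numbered pair or 1 library. Not in any list were miR-690, miR-344d-3p, miR-345-3p and miR-28a-3p, called higher at 1.08 to 2.23.

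The same contrast on the liver surface (labelled diaphragm) used other libraries. There limma called 63 of 407 miRNAs higher (15.5%) and 12 lower (2.95%). Of the 76 pelvic rises 69 were tested there, and 40 were called higher and none lower, which is 52.6% of the pelvic rises and 63.5% of the rises on the liver surface. Of the 21 pelvic falls, all tested there, 7 were called lower. Over the 387 members tested at both sites the liver surface calls were 15.2% higher and 2.58% lower. MiR-182-5p changed by 4.12 on the liver surface (limma adjusted p = 0.000105) and miR-31-5p by 2.88 (limma adjusted p = 0.00305). Sheets of the 2 sites that share a number may come from 1 mouse, so the sites may not be independent of each other.

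A call at 1 site does not show that sites differ, so the difference of the day effects was tested in 1 fit of all 20 libraries. Of 446 miRNAs 2 were called (0.448%), and 28 had an unadjusted p under 0.05. MiR-196a-5p, made from the Hox clusters, had 148 to 645 RPM on day 4 and 271 to 752 RPM on day 0 on the pelvic peritoneum, and 109.7 to 420.2 RPM on day 4 and 12.6 to 113 RPM on day 0 on the liver surface. The day effect was lower on the pelvic peritoneum by 3.50 on the log2 scale (difference -3.50, SE 0.65, limma adjusted p = 0.0103). MiR-6239 had a larger rise on the pelvic peritoneum (difference 2.44, SE 0.52, limma adjusted p = 0.0233), with at most 11.0 RPM in any liver surface library. It passed the filter through the pelvic day 4 libraries (14.6 to 124 RPM), the group in which it is high. The call for miR-6239 is therefore partly set by the filter and is no independent evidence of a difference between the sites.

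The red blood cell miRNAs, all called on the pelvic peritoneum and none on the liver surface, did not pass this test. For miR-451a the day effect was 0.43 on the liver surface, and the difference of 3.00 had an SE of 1.38 (limma adjusted p = 0.706). No difference between the sites was shown for them. Both interaction calls were lost without replicate 3, 4 or 5 and without the 2 shallowest day 4 libraries. There was 1 call without replicate 1, with edgeR, with scaling and after thinning, and there were 3 with DESeq2 and with a pseudocount of 1 RPM.

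**Figure D4:**
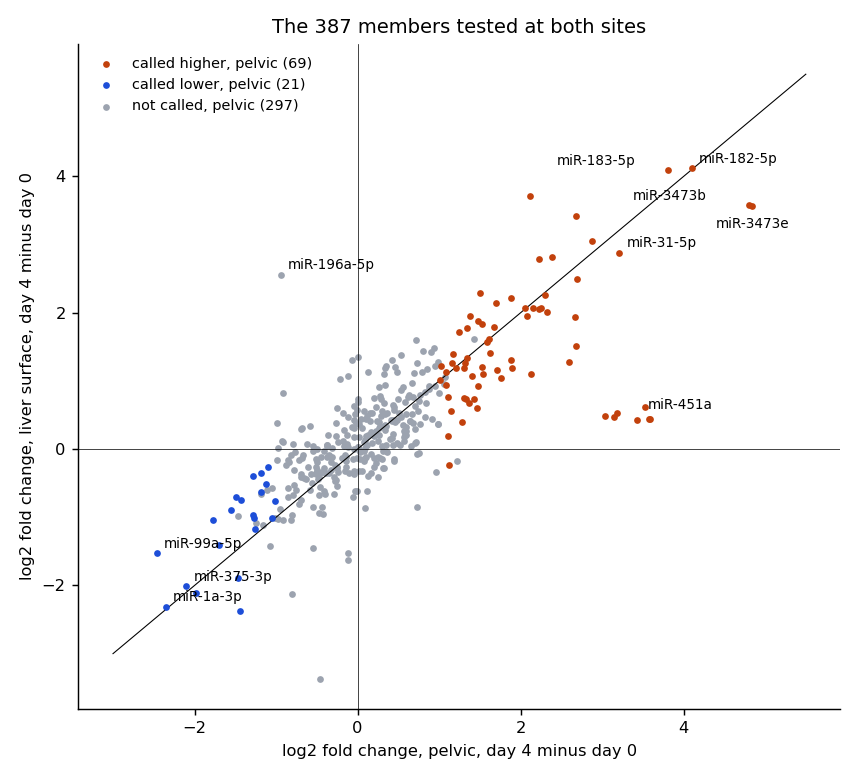
Log2 fold change of day 4 over day 0 on the pelvic peritoneum (x axis) and on the liver surface (y axis) for the 387 members tested at both sites, with the line of equal change. Points are colored by the pelvic call (69 red higher, 21 blue lower, 297 grey). The 7 red points near 0.5 on the y axis and past 3 on the x axis are the red blood cell miRNAs, and miR-196a-5p lies at the upper left.

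EVs of the IP model, with established tumor in other mice, gave a view of the same miRNAs in 3 tumor and 3 normal libraries. There the cells had been injected into the peritoneal cavity in a larger number, and mice were sampled later than day 4. The normal libraries came from tumor-free control mice. Route, cell number and time thus differ from the orthotopic groups. No test was made. Over the 403 miRNAs all 3 tumor libraries lay above all 3 normal ones for 74 (18.4%) and below them for 195 (48.4%). Of the 76 pelvic rises 22 lay above and 23 below, and of the 21 falls 2 lay above and 13 below. With the IP libraries scaled by median of ratios, 28 of the rises lay above and 19 below, and 11 of the falls below. Rises that lay above in IP tumor EVs included miR-182-5p (mean 5158 RPM in IP tumor EVs, 64.5 RPM in IP normal EVs), miR-31-5p (1624 RPM in IP tumor EVs, 13.8 RPM in IP normal EVs), miR-503-5p (1147 RPM in IP tumor EVs, 8.62 RPM in IP normal EVs) and miR-184-3p (2215 RPM in IP tumor EVs, 3.57 RPM in IP normal EVs).

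The Dlk1-Dio3 rises went the other way there: 15 of the 16 lay below in IP tumor EVs, as did 52 of the 53 members tested. MiR-134-5p averaged 7.47 RPM in IP tumor EVs and 150.1 RPM in IP normal EVs. Of the 18 late-numbered rises 1 lay above and 7 below, and miR-6240 averaged 1.52 RPM in IP tumor EVs and 3.89 RPM in IP normal EVs. The red blood cell miRNAs overlapped. Among the falls, miR-99a-5p averaged 25077 RPM in IP tumor EVs and 63865 RPM in IP normal EVs, and let-7c-5p, which fell on day 4, lay above in IP tumor EVs (25755 RPM, against 11036 RPM in IP normal EVs).

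Over members with a RefSeq sequence the median share of G and C was 52.2% for rises, 47.6% for falls and 45.6% for miRNAs not called, and no test was made of it. Of seeds held by several members, AUUGCAC had 5 members with 3 rises, AACAGUC had its pair miR-132-3p and miR-212-3p both higher, and GAGGUAG of let-7 had 9 members with 1 rise and 2 falls.

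The calls were also counted under other settings. All 97 kept their direction in every alternative in which they were tested, and 41 were also called in each of these except replicates 2 and 5 alone. Each alternative reuses libraries that gave the 97, so the shared direction is largely set by how they were chosen. Without 1 numbered pair or 1 library, 33 of the 97 lost their call in at least 1 such setting, 26 rises and 7 falls. The least stable was miR-188-5p, lost in 12 of 15 such settings (highest limma adjusted p = 0.188). MiR-380-3p, miR-381-3p, miR-382-5p, miR-410-3p and miR-3071-5p were lost in 9 each (limma adjusted p up to 0.143) and miR-130b-5p in 8 (limma adjusted p up to 0.125). Besides these and red blood cell miRNAs, the lost calls included miR-184-3p, miR-210-3p, miR-132-3p, miR-199a-5p, miR-92a-3p, let-7i-5p, miR-125b-2-3p, miR-125b-5p and miR-10b-5p. The smallest log2 fold changes of these last 9 were 0.87 to 1.72 in size, and their highest limma adjusted p were 0.022 to 0.105. After thinning 59 of the 76 rises and 19 of the 21 falls were called, 4 rises being no longer tested. EdgeR called 60 of the rises and all 21 falls. Of the 403 miRNAs 284 reached 10 RPM in all 10 libraries, and these hold 48 of the rises and 16 of the falls. Another 11 reached it in no day 0 library, so that they entered only through day 4, and all 11 were called higher.

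At the border of the filter, the fifth highest of the 10 values was 10.2 RPM for miR-25-5p, miR-5110 and miR-744-3p, which entered, and 9.88 RPM for let-7c-1-3p, miR-185-3p and miR-34b-3p, which did not. The last of these had 9.88 to 51.2 RPM on day 4 and 0.905 to 3.77 RPM on day 0.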

How the data were processed

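The authors trimmed adapters, mapped small RNA reads to miRBase 22 with up to 2 mismatches and deposited RPM values, which are reads per 1000000 mapped reads, for each library. How reads that match several miRNAs were assigned is not given in the sources used here. All values were whole multiples of 1 read (100% within a tolerance of 0.001), so whole reads could be recovered, and no pair of libraries was identical.

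MiRNAs with 10 RPM in at least 5 of the 10 pelvic libraries were tested with limma 3.58.1 in R 4.3.3 (empirical Bayes with trend, log2(RPM + 10)), with Benjamini-Hochberg adjusted p under 0.05 and log2 fold change over 1 in size as calls. The same fit was made for the liver surface and, over all 20 orthotopic libraries, for the interaction of site and day. Alternatives were edgeR 4.0.16 and DESeq2 1.42.0 on recovered reads, scaling by median of ratios, pseudocounts of 1 and 50 RPM, no filter or 100 RPM, thinning to 132483 reads, libraries left out, the library code as a covariate, and a replicate block. Thinning, leaving out the 2 shallowest libraries and scaling the IP libraries were chosen after seeing the data. Pairing by replicate number was checked: deviations from the group means correlated between same-numbered libraries at 0.189 to 0.631, and 5 of 5 day 4 libraries correlated best with the day 0 library of their number, as did 4 of 5 day 0 libraries with day 4 (day 0 replicate 3 was closer to day 4 replicate 4, at 0.370). The fits were also run on simulated reads with 1 fixed spread for all miRNAs and no link between same-numbered libraries. That run checks the code and does not show how well the calls hold in these data. RefSeq sequences and GENCODE M21 genes are of GRCm38.p6. The members and lists were chosen with earlier results of these data known. Named miRNAs are the 15 largest rises and 15 largest falls among calls, the 10 most abundant, the 3 most abundant and all called members of each list, the interaction calls and 3 on each side of the filter. The other 10 called miRNAs that are named, and miR-205-5p, miR-214-5p and let-7j, were chosen after their values were seen.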

Additional observations from a re-analysis of the deposited data

Results flagged for a closer look

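In 18 of 312 groups of 5 libraries, over the 156 miRNAs looked at, the highest or lowest library stood far from the others of its day, with a gap over 0.71 of the range. For normal values on that scale, chance gives about 1 in 20 such groups. Day 4 replicate 5 accounts for 6 of them: it was highest for miR-106b-3p at 1973 RPM and miR-25-3p at 17458 RPM, and lowest for miR-126a-5p at 6.87 RPM, miR-146a-5p at 2358 RPM, miR-194-5p at 323 RPM and miR-29b-3p at 68.7 RPM. It is also the library that stood apart on the second principal component. On day 4, replicate 3 was highest for miR-126b-3p (22.6 RPM), replicate 1 for miR-200b-3p (941 RPM) and replicate 2 for miR-296-3p (144 RPM). On day 0, replicate 5 was highest for let-7i-5p (44459 RPM) and lowest for miR-3074-5p (1959 RPM), replicate 3 was lowest for miR-196a-5p (271 RPM) and highest for miR-3473b (45.7 RPM), and replicate 2 was highest for miR-299a-3p (233 RPM), miR-3071-5p (87.0 RPM) and miR-6239 (2.93 RPM). Replicate 1 was lowest on day 0 for miR-744-3p (3.01 RPM) and replicate 4 highest for miR-92b-3p (23.5 RPM).

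The day effect was called different between the pelvic peritoneum and the liver surface for 2 miRNAs, miR-196a-5p (difference -3.50 on the log2 scale) and miR-6239 (2.44), with the values given in the text. MiR-6239 had passed the filter through pelvic day 4 alone.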

How the results depend on the processing

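The 97 calls kept their direction under all alternatives in which they were tested, but these reuse the libraries that gave the calls. On the pelvic peritoneum, 76 called higher and 21 called lower became 41 and 15 with a filter of 100 RPM, 58 and 51 with median-of-ratios scaling, 64 and 45 with edgeR, 74 and 49 with DESeq2, and 0 and 0 in the 2 against 2 libraries of replicates 2 and 5 (67 at an unadjusted p under 0.05), where all 97 still had their direction. A pseudocount of 50 RPM gave 54 and 14. Same-numbered libraries deviated together, but the labels do not say why, and the main fits did not use the numbers. The replicate block gave 80 and 28 with no call lost. It added miR-351-5p, miR-133a-3p, miR-143-3p, miR-145a-3p, miR-29b-3p and miR-205-5p among the named miRNAs and changed no other call of these. Leaving out a numbered pair gave 60 to 80 higher and 17 to 23 lower, and leaving out 1 library 71 to 90 higher and 19 to 28 lower. On the liver surface, 63 higher became 36 with a pseudocount of 50 RPM and 24 with a filter of 100 RPM. The 12 lower there became 37 with scaling, 34 with edgeR, 40 with DESeq2 and 6 to 22 without 1 numbered pair. The 2 interaction calls became 1 with a pseudocount of 50 RPM, without a filter, with a filter of 100 RPM, with scaling, with edgeR and after thinning, 3 with DESeq2 and with a pseudocount of 1 RPM, 0 without the 2 shallowest day 4 libraries, and 0 to 2 without 1 numbered pair. The cause of these changes was not tested. Library depth limits miRNAs near 10 RPM, which is 1.32 to 4.11 reads in a day 4 library.

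MiRNAs with small changes, none of them called, changed sign under some alternatives. With median-of-ratios scaling the log2 fold changes were those of miR-127-3p (-0.075), miR-148a-3p (-0.21), miR-15a-5p (-0.22), miR-16-5p (-0.21), miR-181b-5p (-0.053), miR-1839-5p (-0.23), miR-30a-5p (-0.13), miR-449a-5p (-0.15), miR-532-5p (-0.055) and miR-669o-3p (-0.049). With edgeR they were miR-122-5p (1.02), miR-15a-5p (-0.13), miR-16-5p (-0.17), miR-1839-5p (-0.18), miR-30a-5p (-0.049), miR-449a-5p (-0.18) and miR-532-5p (-0.038), and with DESeq2 miR-15a-5p (-0.16), miR-16-5p (-0.17), miR-1839-5p (-0.16), miR-449a-5p (-0.19) and miR-532-5p (-0.017). With a pseudocount of 50 RPM this was miR-5110 (0.016), and after thinning miR-126b-3p (0.0031) and miR-449a-5p (-0.14). Without the 2 shallowest day 4 libraries they were miR-126a-5p (0.054), miR-148a-3p (-0.38), miR-23a-3p (0.0020), miR-29c-3p (0.044) and miR-5110 (0.18). Replicates 1, 3 and 4 alone gave miR-126a-5p (0.15), miR-126b-3p (0.093), miR-203-3p (0.031), miR-23a-3p (0.098), miR-27a-3p (0.0083), miR-3074-5p (0.027) and miR-5110 (0.19), and replicates 2 and 5 alone miR-122-5p (1.03), miR-127-3p (-0.10), miR-15a-5p (-0.049), miR-181b-5p (-0.43), miR-1839-5p (-0.15), miR-362-3p (-0.021), miR-449a-5p (-0.51) and miR-99b-5p (0.38). Leaving out 1 library or 1 numbered pair gave ranges across 0 for miR-122-5p (-1.60 to 0.16), miR-126a-5p (-0.30 to 0.17), miR-126b-3p (-0.29 to 0.19), miR-127-3p (-0.028 to 0.56), miR-146a-5p (-0.46 to 0.054), miR-148a-3p (-0.34 to 0.46), miR-15a-5p (-0.15 to 0.50), miR-16-5p (-0.061 to 0.31), miR-1839-5p (-0.021 to 0.18), miR-23a-3p (-0.31 to 0.15), miR-29c-3p (-0.80 to 0.068), miR-3074-5p (-0.35 to 0.099), miR-379-5p (-0.63 to 0.095), miR-449a-5p (-0.14 to 0.28), miR-5110 (-0.23 to 0.21), miR-669o-3p (-0.0061 to 0.39) and miR-99b-5p (-0.16 to 0.26).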
